A study of Mus musculus with 20 samples.

Results

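The genes of glucose uptake, glycolysis, lactate and pyruvate handling and the pentose phosphate pathway were followed in mouse pre-B cells after induction of IKZF1. The 39 genes were chosen by name, for the step of glucose metabolism that each encodes, and make up 39 of the 56239 genes counted. Of these, 35 reached 10 counts in 2 or more libraries and were tested among 16601 genes, and 4 did not (Ldhb, Pdk2, Pdk4 and G6pdx).

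Glucose enters the cell through facilitative transporters and is trapped by hexokinases. The preparatory enzymes of glycolysis spend ATP to split the sugar, and the payoff enzymes regain ATP while oxidising it to pyruvate, which is either reduced to lactate and exported or passed to mitochondria through pyruvate dehydrogenase. The pentose phosphate pathway branches off at glucose 6-phosphate and supplies NADPH and ribose for nucleotides. Rapidly dividing lymphoid progenitors are known for high use of these routes, and pre-B cells lower glucose use as they leave the cell cycle and differentiate.

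B3 is a mouse pre-B cell line. All libraries came from B3 cells transduced with a retrovirus carrying IKZF1-ERt2, a fusion of IKZF1 with a modified oestrogen receptor domain that moves into the nucleus when 4-hydroxytamoxifen (4-OHT) is added. Chromatin-associated RNA, which is enriched for transcripts still being made, was sequenced from untreated cells (0 h) and from cells given 500 nM 4-OHT for 30 min or for 1, 2, 6, 12, 15, 18, 21 or 24 h, with 2 libraries at each of the 10 time points. There were no cells treated with 4-OHT without the fusion and no untreated cells at later times among the libraries used here, so induction, 4-OHT itself and time in culture cannot be told apart. The labels do not state whether the 2 libraries of a time point came from separate cultures, and the p-values measure the spread between these libraries only.

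The libraries held 33296158 to 46868954 counts on genes (median 40943260). For Ikzf1 the counts take the construct and the endogenous gene together. Ikzf1 stood at 4840 ± 4.43 CPM (counts scaled to library size, SD, n = 2) at 0 h and at 8801 ± 599 CPM at 24 h. Its log2 fold change at 24 h was 0.86 ± 0.04 (SE, edgeR, adjusted p = 6.55e-15). Since the fusion acts by moving into the nucleus, the RNA level of Ikzf1 does not check the labels. Pre-B cell marker genes summed to 8303 to 16495 CPM in the libraries, with Ebf1, Pax5 and Il7r the most abundant, while the summed markers of T cells, myeloid cells and erythroid cells stayed at or below 1.73 CPM in every library. At 24 h Blnk, Cd79b and Pax5 had risen most among the pre-B markers (log2 fold changes 4.35, 2.29 and 1.88) and the surrogate light chain genes Igll1 and Vpreb1 had fallen (-7.42 and -5.56), and of the others only the myeloid marker Csf1r was called (-1.52). The pre-B markers Rag1 and Rag2 were listed at 0, and the annotation places both wholly within other genes. The libraries of 12, 18 and 21 h differed most within a time point (chi-square per degree of freedom 9.22, 13.9 and 4.49, against 1.24 to 2.47 elsewhere). The share of counts from mitochondrial genes rose from 0.147% ± 0.00409 at 0 h to 0.993% ± 0.0374 at 24 h (SD, n = 2), and scaling by library totals alone would lower all log2 fold changes at 24 h by 0.258; its part in the results was not tested, and changes below are relative to the TMM scaling, under which the median of all genes at 24 h was -0.01.

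Promoter windows of 4 genes are shown because they stand for the patterns described below: Ldha and Pgk1 were first called lower at 12 h, Slc16a1 was first called higher at 2 h and Bpgm at 1 h. The windows run from 250 bases before to 50 bases after a RefSeq transcription start (GRCm38.p6, plus strand, 5′ to 3′), and capitals mark the letters ACGTG on either strand, the core of the site read by hypoxia-inducible factors, which is also contained in CACGTG, the E-box read by MYC and its relatives. Ldha has another window, chr7:46846832-46847131, which is not shown and holds neither ACGTG nor CACGTG. The windows shown are Ldha chr7:46845554-46845853, Pgk1 chrX:106186850-106187149, Slc16a1 chr3:104638414-104638713 and Bpgm chr6:34476106-34476405.
Ldha: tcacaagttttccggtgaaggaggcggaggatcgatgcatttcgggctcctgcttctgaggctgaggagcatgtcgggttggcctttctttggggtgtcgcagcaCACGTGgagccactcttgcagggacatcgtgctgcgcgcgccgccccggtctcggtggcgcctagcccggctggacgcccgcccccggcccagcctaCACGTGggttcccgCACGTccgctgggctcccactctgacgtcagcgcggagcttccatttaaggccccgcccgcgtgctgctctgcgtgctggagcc
Pgk1: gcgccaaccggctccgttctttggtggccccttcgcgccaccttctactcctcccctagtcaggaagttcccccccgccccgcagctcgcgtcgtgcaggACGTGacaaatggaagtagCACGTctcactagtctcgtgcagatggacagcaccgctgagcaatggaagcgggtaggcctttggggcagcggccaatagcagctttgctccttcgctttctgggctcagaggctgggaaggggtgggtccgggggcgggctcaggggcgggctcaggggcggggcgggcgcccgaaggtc
Slc16a1: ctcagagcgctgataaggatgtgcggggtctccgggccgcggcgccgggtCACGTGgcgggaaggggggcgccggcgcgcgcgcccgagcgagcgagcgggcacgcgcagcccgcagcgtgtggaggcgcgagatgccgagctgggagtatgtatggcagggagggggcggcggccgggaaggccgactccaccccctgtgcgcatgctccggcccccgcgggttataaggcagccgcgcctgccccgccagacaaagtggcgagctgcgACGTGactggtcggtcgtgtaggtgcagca
Bpgm: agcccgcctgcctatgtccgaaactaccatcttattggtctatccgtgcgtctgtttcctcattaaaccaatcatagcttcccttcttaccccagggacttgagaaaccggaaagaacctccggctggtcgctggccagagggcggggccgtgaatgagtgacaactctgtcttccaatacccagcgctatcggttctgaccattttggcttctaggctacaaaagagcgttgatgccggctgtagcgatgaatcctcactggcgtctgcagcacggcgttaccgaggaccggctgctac

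Of the 39 genes, 38 had at least 1 window (55 windows in all; Slc2a3 had none). ACGTG, on either strand and including its matches inside CACGTG, was in 24 of the 55 windows (43.6%), against 19.6% of all 32851 windows and 24.1% of the 14317 windows of tested genes. By gene, 20 of the 38 held it in at least 1 window (52.6%), against 21.8% of all genes with a window and 27.6% of tested ones. Of the 14 genes that fell at 24 h, 9 held it (Aldoc, Gapdh, Hk2, Ldha, Pfkfb3, Pgam1, Pgk1, Pkm and Slc16a3). So did 2 of the 6 that rose (Hk3 and Slc16a1) and 7 of the 14 tested genes with a window that did neither. CACGTG was in 6 of the 55 windows (10.9%, against 7.15% of all windows and 9.29% of those of tested genes), those of Ldha, Pdk2, Pfkfb2, Pfkfb3, Pfkm and Slc16a1. TGGGAA, on either strand, the letters of a core IKZF1 motif, was in 11 of the 55 windows (20%), against 25.6% of all windows and 23.8% of those of tested genes. Its shorter core GGGAA, counted also inside TGGGAA and on either strand, was in 38 of the 55 (69.1%), against 62.7% and 64.6%.

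Few of the 35 tested genes passed 2-fold at first, and their median lay below 0 from 12 h on. The quasi-likelihood test of edgeR, adjusted over all tested genes by Benjamini-Hochberg, called a gene at an adjusted p under 0.01 and a fold above 2. At 30 min no gene of the 35 was called (0.410% of all tested genes fell and 0.0542% rose, 0.464% in all), although 6 had an adjusted p under 0.01, as did 8.44% of all genes. At 1 h Bpgm alone was called, a rise seen in 2.33% of all genes, while 4.84% fell (7.16% in all). Without the fold limit 6 of the 35 were lower and 17 higher at 1 h with an adjusted p under 0.01. Of all genes 36.3% passed that limit. At 2 h Hk2 and Pfkfb3 had fallen and Bpgm, Pfkfb4 and Slc16a1 had risen, 5 of 35 in all. Of all genes 6.91% fell and 6.25% rose (13.2% in all). Pfkfb3, Pfkfb4 and Slc16a1 lay close to the 2-fold limit at 2 h (log2 fold changes -1.01, 1.05 and 1.05). A test against a 2-fold change called 2 of the 35 there (6.16% of all genes). At 6 h 1 gene had fallen and 3 had risen (9.13% of all genes fell and 10.9% rose, 20.1% in all), and at 12 h 5 had fallen and 2 had risen (9.92% and 13.2%, 23.1% in all). At 15 h 8 had fallen and 4 had risen (13.1% and 15.3% of all genes, 28.4% in all). At 18 h 12 had fallen and 5 had risen (17.6% and 19.1%, 36.6% in all), and the same counts held at 21 h (19.4% and 20.1%, 39.5% in all).

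At 24 h 14 of the 35 had fallen, against 20.1% of all genes, and 6 had risen, against 20%, 40.1% of all genes being called in all. The median log2 fold change of the 35 was 0.24 at 6 h, -0.19 at 12 h and -0.58 at 24 h, beside 0.02, 0.02 and -0.01 over all genes tested. Of the 10 enzyme steps between glucose and pyruvate, 9 had a gene that fell, the exception being glucose 6-phosphate isomerase. A step counted if any of its genes fell, and no matching share over all genes was computed. Aldolase counted only through the low-count Aldoc, while the main aldolase gene Aldoa was not called (log2 fold change -0.65). At the hexokinase and enolase steps another isozyme gene rose (Hk3 and Eno2). Over the whole time course 20 of 35 changed (51.9% of all genes). The genes' summed share of all counts was 0.215% ± 0.00137 at 0 h and 0.139% ± 0.00281 at 24 h (SD, n = 2). In bulk RNA fewer cells of a kind and less RNA per cell cannot be told apart.

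**Figure D1:**
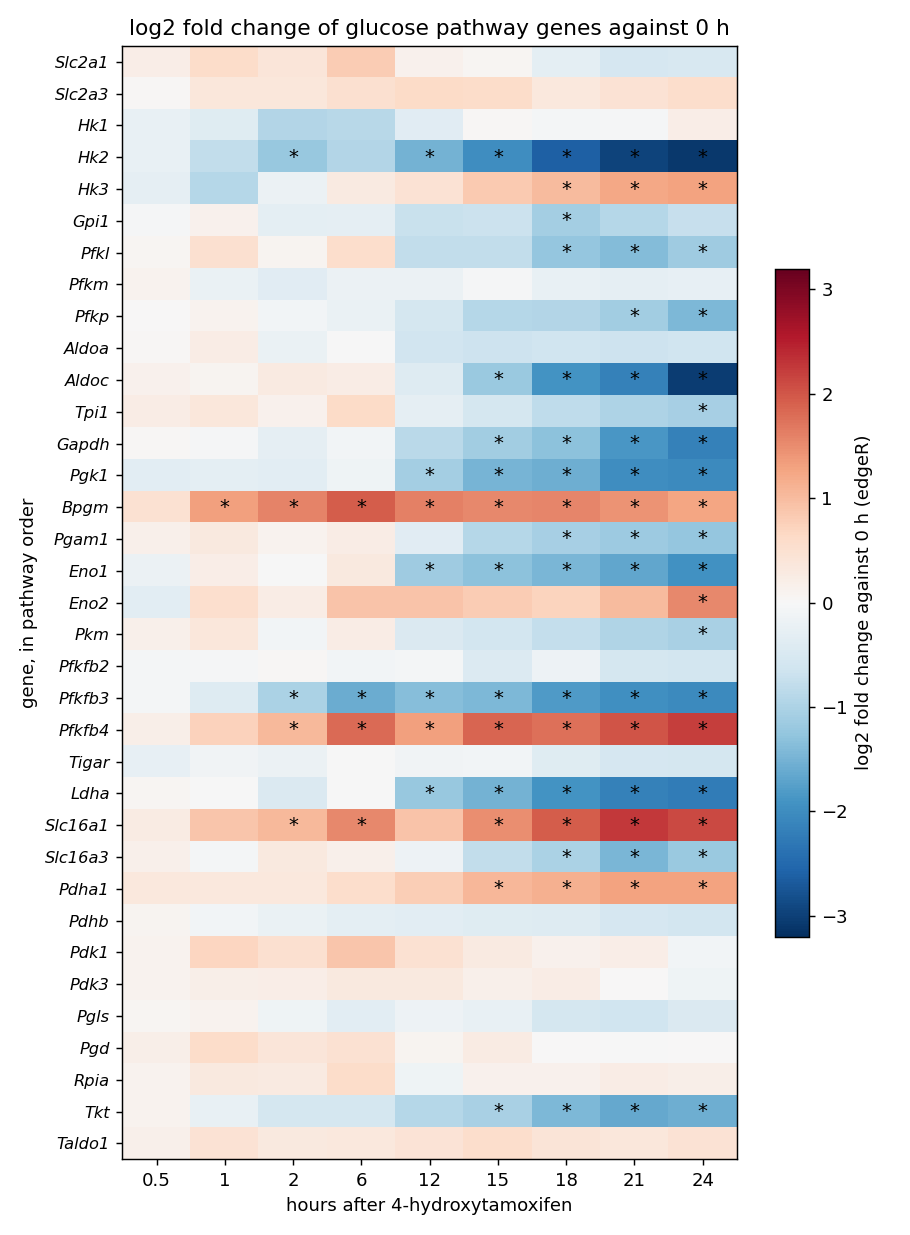
Log2 fold change against 0 h (edgeR, colour scale) of the 35 tested genes in pathway order (rows) at each time after 4-OHT (columns, hours), with asterisks where the adjusted p was under 0.01 and the fold above 2. Bpgm, Pfkfb4, Slc16a1, Hk2 and Pfkfb3 carry asterisks at 2 h, while most other asterisks stand at 12 h or later.

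The log2 fold changes of the glucose transporters had opposite signs at 24 h (gene positions are those of GENCODE M21 on GRCm38). Slc2a1 (chr4:119108711-119137983, plus strand), which encodes GLUT1, the widely expressed basal transporter, measured 22.8 and 23.2 CPM at 0 h, 40.7 and 40.7 CPM at 6 h, then 15.7 and 16.8 CPM at 24 h. The 6 h libraries lay above and the 24 h libraries below both 0 h libraries. Slc2a1 was 0.82 ± 0.06 (log2 fold change ± SE) above 0 h at 6 h and -0.50 ± 0.07 at 24 h, neither past 2-fold, but at 24 h against 6 h it fell by 1.32 ± 0.06 (edgeR, adjusted p = 5.89e-14). Slc2a3, which encodes the high-affinity transporter GLUT3, measured 135 and 137 CPM at 0 h, then 198 and 204 CPM at 24 h, which gave a log2 fold change of 0.57 ± 0.06 that stayed under 2-fold. Per kb of gene body, Slc2a1 made up 29.9% ± 0.0492 of the 2 transporters at 0 h and 16.9% ± 0.362 at 24 h (SD, n = 2).

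The hexokinases, which trap glucose as glucose 6-phosphate, changed places. Hk2 (chr6:82725025-82774454, minus strand), the growth- and hypoxia-responsive hexokinase, measured 68.1 and 67.8 CPM at 0 h, 39.4 and 39.8 CPM at 1 h, 29.8 and 29.1 CPM at 2 h, 35.5 and 34.9 CPM at 6 h, 22.4 and 24.8 CPM at 12 h, then 8.82 and 7.11 CPM at 24 h. Every library from 30 min on lay below both 0 h libraries. The log2 fold change of Hk2 was -1.21 ± 0.06 at 2 h and -3.10 ± 0.07 at 24 h (edgeR, adjusted p = 4.81e-20). Hk1, the housekeeping hexokinase, measured 25.9 and 26.2 CPM at 0 h, 14.4 and 12.7 CPM at 2 h, then 31.5 and 28.6 CPM at 24 h, with log2 fold changes of -0.95 ± 0.10 at 2 h and 0.20 ± 0.09 at 24 h (adjusted p = 0.0528 at 24 h by edgeR). From 6 h to 24 h it rose by 1.09 ± 0.10. Hk3, the least abundant of the hexokinases per kb, measured 0.842 and 0.675 CPM at 0 h, then 1.82 and 1.93 CPM at 24 h, which gave a log2 fold change of 1.30 ± 0.18 (edgeR, adjusted p = 1.49e-06).

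Per kb of gene body, Hk2 made up 82.9% ± 0.269 of the 3 hexokinases at 0 h and 29.0% ± 2.46 at 24 h (SD, n = 2). Hk1 went from 14.1% ± 0.176 to 48.9% ± 0.0686, and Hk3 from 2.97% ± 0.445 to 22.1% ± 2.39. With exon length in place of gene body the Hk1 share at 24 h was 65.7% and the Hk3 share 9.52%, so that Hk3's share depends on the length used and the order Hk1 above Hk2 does not.

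Of the 7 other preparatory genes, 4 were called lower at 24 h than at 6 h, with a fold above 2 (Pfkl, Pfkp, Aldoc and Tpi1). Of all tested genes 12.8% fell in that comparison. Gpi1, glucose 6-phosphate isomerase, measured 152 and 149 CPM at 0 h, then 93.6 and 88.4 CPM at 24 h, and passed 2-fold only at 18 h. Of the phosphofructokinases, which commit the sugar to glycolysis, Pfkl (liver type, chr10:77986947-78010083, minus strand) measured 30.0 and 27.4 CPM at 0 h, 43.8 and 41.9 CPM at 6 h, then 13.6 and 12.5 CPM at 24 h. Its 6 h libraries were the highest of all and its late libraries lay below both 0 h libraries, with a log2 fold change of -1.14 ± 0.09 at 24 h (edgeR, adjusted p = 8.08e-11). Pfkp (platelet type) measured 108 and 109 CPM at 0 h, then 39 and 41.3 CPM at 24 h and fell by 1.44 ± 0.05 (edgeR, adjusted p = 2.34e-17), while Pfkm (muscle type) measured 16.3 and 15.4 CPM and then 13.3 and 13.3 CPM, a log2 fold change of -0.25 ± 0.08 that was not called. The test of whether Pfkm and Pfkp differ was not run.

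Aldolase splits fructose 1,6-bisphosphate. Aldoa, the main aldolase here at 94.8% ± 0.593 of the 2 per kb of gene body (SD, n = 2), measured 29.3 and 29.5 CPM at 0 h, then 19.8 and 17.9 CPM at 24 h, and its log2 fold change of -0.65 ± 0.07 was under 2-fold. Only 44.1% of the Aldoa gene is free of other genes, so its level may be an underestimate. Aldoc, the brain-type aldolase, measured 1.53 and 1.31 CPM at 0 h, then 0.119 and 0.217 CPM at 24 h, which gave a log2 fold change of -3.04 ± 0.28 (edgeR, adjusted p = 2.49e-09) resting on low counts (4 to 78 in a library). Tpi1 (chr6:124810586-124814296, minus strand), triosephosphate isomerase, measured 12.6 and 12.1 CPM at 0 h, 20.4 and 17.7 CPM at 6 h, then 5.99 and 5.94 CPM at 24 h. It fell by 1.05 ± 0.09 against 0 h (edgeR, adjusted p = 3.86e-10). Against 6 h its log2 fold change was -1.68 ± 0.08 (edgeR, adjusted p = 1.05e-13).

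Of the 7 genes grouped with the payoff steps 5 fell at 24 h and 2 rose, with a median log2 fold change of -1.23 (20.1% and 20% of all tested genes, median -0.01). The group includes Bpgm, whose enzyme is not among the 10 steps between glucose and pyruvate counted above. Gapdh (chr6:125161715-125166467, minus strand), glyceraldehyde 3-phosphate dehydrogenase, measured 50.8 and 49.998 CPM at 0 h, 46.9 and 48.3 CPM at 6 h, 28.9 and 26.5 CPM at 12 h, then 12.1 and 10.3 CPM at 24 h. Pgk1 (chrX:106187100-106203699, plus strand), phosphoglycerate kinase, measured 60.3 and 60.4 CPM at 0 h, 56.9 and 53.0 CPM at 6 h, 31.0 and 26.2 CPM at 12 h, then 14.3 and 15.3 CPM at 24 h. Gapdh lay within 2-fold of 0 h up to 6 h, Pgk1 was already lower at 30 min (46.8 and 48.7 CPM), and every library from 12 h on lay below both 0 h libraries for each gene, with log2 fold changes at 24 h of -2.17 ± 0.07 for Gapdh and -2.03 ± 0.07 for Pgk1 (edgeR, adjusted p = 3.38e-17 and 1.54e-16).

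Eno1 (chr4:150236721-150248879, plus strand), the main enolase, measured 95.8 and 93.7 CPM at 0 h, 119 and 117 CPM at 6 h, 45.5 and 40.7 CPM at 12 h, then 26.0 and 23.1 CPM at 24 h. It was the only gene called at 12 h against 2 h (1 of 35, lower at 12 h, where 4.63% of all genes fell and 7.85% rose, 12.5% in all). A test against a 2-fold change called 0 of the 35 there (4.04% of all genes), and without the second 12 h library 2 were called. Its log2 fold change was -1.95 ± 0.06 at 24 h against 0 h (edgeR, adjusted p = 9.1e-18) and -2.27 ± 0.06 against 6 h. Pgam1, phosphoglycerate mutase, measured 19.3 and 18.8 CPM at 0 h, then 8.32 and 7.95 CPM at 24 h and fell by 1.23 ± 0.06 (edgeR, adjusted p = 1.29e-13). Pkm, pyruvate kinase, whose isoforms gene counts do not separate, measured 139 and 143 CPM at 0 h, 166 and 167 CPM at 6 h, then 70.9 and 66.9 CPM at 24 h. Pkm fell by 1.04 ± 0.04 (edgeR, adjusted p = 1e-16), close to the 2-fold limit, and was not called without the second 24 h library (-0.99).

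Of the genes grouped with the payoff steps, the 2 that rose were Bpgm and Eno2. Bpgm (chr6:34476207-34505613, plus strand), which makes 2,3-bisphosphoglycerate and is best known in red cells, measured 5.98 and 6.30 CPM at 0 h, 8.99 and 8.20 CPM at 30 min, 15.2 and 15.3 CPM at 1 h, 23.1 and 23.8 CPM at 6 h, then 15.1 and 14.5 CPM at 24 h. All later libraries lay above both 0 h libraries. It was called at 8 of the 9 times, first at 1 h (1.31 ± 0.07, edgeR adjusted p = 2.36e-12). The summed erythroid markers stayed at or below 0.776 CPM in every library. Eno2, the neuronal enolase, measured 0.173 and 0.135 CPM at 0 h, then 0.447 and 0.461 CPM at 24 h (5 to 17 counts in a library), a log2 fold change of 1.54 ± 0.38 whose edgeR adjusted p of 0.00101 became 0.0117 without the second 0 h library. Over the whole time course Eno2 did not pass the test (edgeR, adjusted p = 0.0105).

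**Figure D2:**
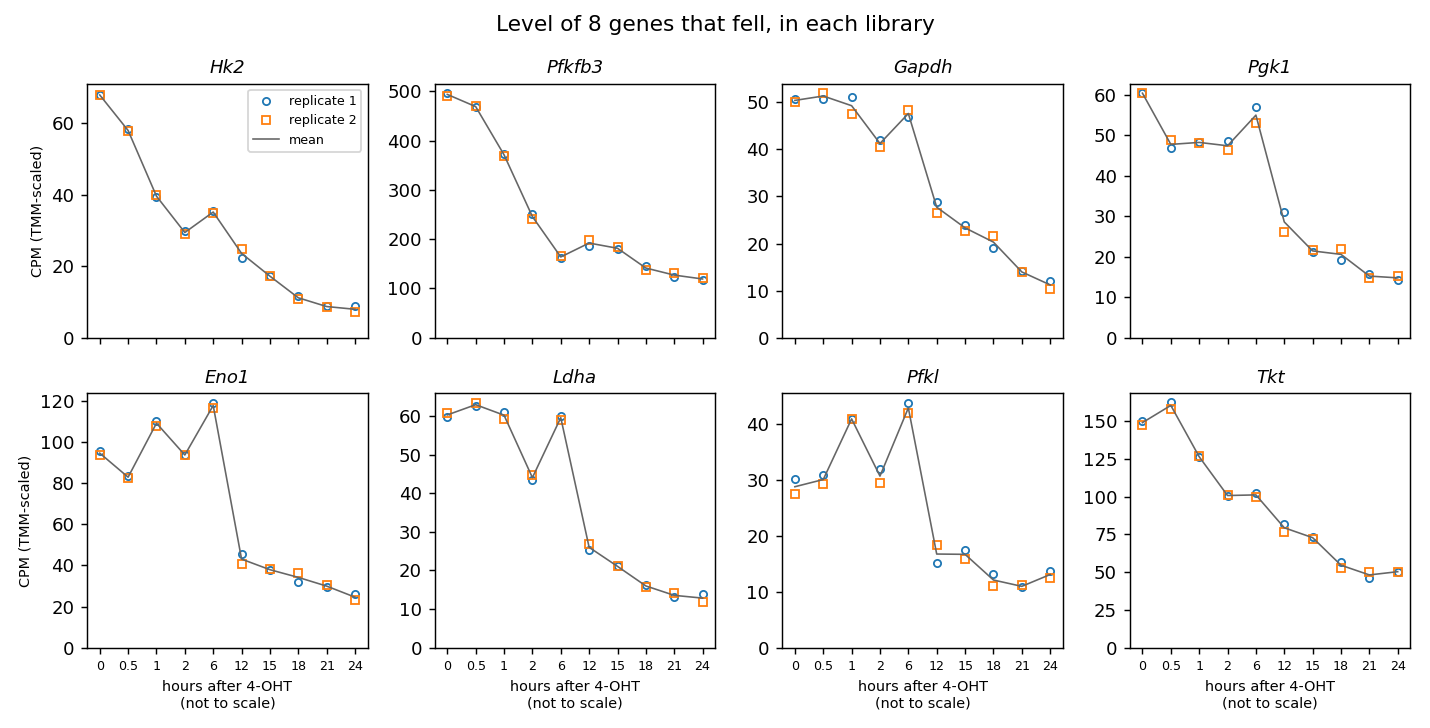
CPM (vertical axis, from 0) of 8 genes that fell, at each time (horizontal axis, not to scale), with a circle and a square for the 2 libraries and a line through their means. Hk2 and Pfkfb3 were first called lower at 2 h, Pgk1, Eno1 and Ldha at 12 h, Gapdh and Tkt at 15 h and Pfkl at 18 h.

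Of the 4 genes whose enzymes set fructose 2,6-bisphosphate, the strongest activator of phosphofructokinase, Pfkfb3 and Pfkfb4 were called from 2 h on and Pfkfb2 and Tigar at no time. Pfkfb3 (chr2:11471433-11554077, minus strand), whose product mainly makes the activator, measured 497 and 491 CPM at 0 h, 373 and 369 CPM at 1 h, 250 and 241 CPM at 2 h, 163 and 165 CPM at 6 h, then 116 and 122 CPM at 24 h. Every library from 30 min on was below both 0 h libraries, and the fall was called from 2 h (-1.01 ± 0.04) to 24 h (-2.05 ± 0.04, edgeR adjusted p = 1.1e-20). Pfkfb4 (chr9:108991778-109032228, plus strand), which can also make or break the activator, measured 5.46 and 5.00 CPM at 0 h, 10.6 and 10.96 CPM at 2 h, 19.3 and 17.4 CPM at 6 h, then 24.4 and 24.4 CPM at 24 h, a log2 rise of 2.22 ± 0.09 (edgeR, adjusted p = 5.91e-16). Per kb of gene body Pfkfb3 made up 95.8% ± 0.0163 of the 3 genes at 0 h and 67.6% ± 0.657 at 24 h, and Pfkfb4 2.07% ± 0.113 and 28.3% ± 0.778 (SD, n = 2).

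Pfkfb2, another enzyme that makes and breaks down fructose 2,6-bisphosphate, measured 5.05 and 5.34 CPM at 0 h, then 3.34 and 3.61 CPM at 24 h (log2 fold change -0.58 ± 0.11), and only 11.8% of its length is free of other genes, so its level may be an underestimate. Counted over free length alone, Pfkfb2 would make up 24.4% of the 3 genes at 24 h and Pfkfb3 55.5%. Tigar, whose product breaks down fructose 2,6-bisphosphate, measured 4.71 and 5.52 CPM at 0 h, then 3.49 and 3.45 CPM at 24 h, which gave a log2 fold change of -0.56 ± 0.11.

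**Figure D3:**
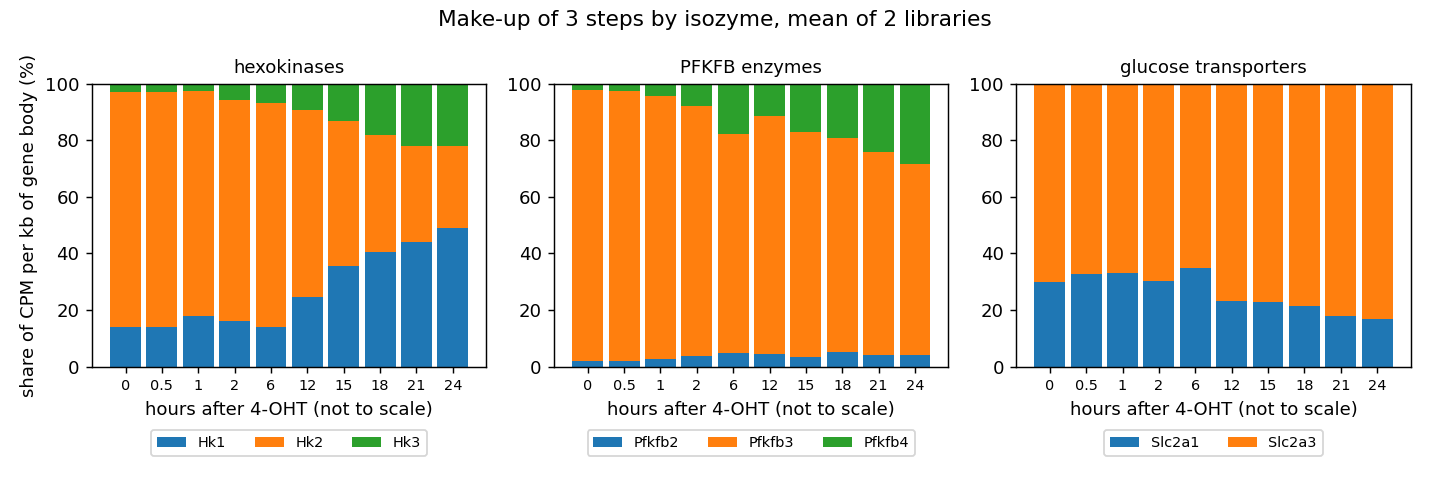
Share (%) of CPM per kb of gene body taken by each isozyme of the hexokinases, the PFKFB enzymes and the glucose transporters at each time (horizontal axis, not to scale), as means of 2 libraries. The PFKFB enzymes shown are Pfkfb2, Pfkfb3 and Pfkfb4, without Pfkfb1. The Hk2 share went from 82.9% to 29.0% and the Pfkfb4 share from 2.07% to 28.3%.

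In lactate handling Ldha and the carrier gene Slc16a3 fell at 24 h, and the carrier gene Slc16a1 rose. Ldha (chr7:46841475-46855627, plus strand), which reduces pyruvate to lactate, measured 59.7 and 60.8 CPM at 0 h, 43.4 and 44.6 CPM at 2 h, 60.03 and 59.1 CPM at 6 h, 25.2 and 26.7 CPM at 12 h, then 13.9 and 11.7 CPM at 24 h. The 6 h libraries were back at the 0 h level and every later library was below it, with a log2 fold change of -2.24 ± 0.06 at 24 h (edgeR, adjusted p = 1.11e-18). Ldhb, the heart-type subunit, had 0 to 2 counts in a library and was not tested. Slc16a1 (chr3:104638668-104658462, plus strand), which encodes the monocarboxylate carrier MCT1, measured 129 and 130 CPM at 0 h, 239 and 239 CPM at 1 h, 372 and 378 CPM at 6 h, 270 and 217 CPM at 12 h, 640 and 604 CPM at 21 h, then 565 and 555 CPM at 24 h. All later libraries lay above both 0 h libraries, and the log2 fold change was 1.05 ± 0.06 at 2 h and 2.11 ± 0.06 at 24 h (edgeR, adjusted p = 7.65e-18). Slc16a3, the lactate exporter MCT4, measured 5.36 and 5.88 CPM at 0 h, then 2.56 and 2.39 CPM at 24 h and fell by 1.18 ± 0.12 (edgeR, adjusted p = 1.85e-08).

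At pyruvate dehydrogenase, the gate to mitochondrial oxidation, Pdha1 (the E1 alpha subunit) measured 16.0 and 17.0 CPM at 0 h, 24.0 and 24.9 CPM at 6 h, then 40.3 and 40.3 CPM at 24 h. It rose by 1.29 ± 0.06 on the log2 scale (edgeR, adjusted p = 2.25e-14) and was called from 15 h. Pdhb, the E1 beta subunit, measured 34.3 and 36.3 CPM at 0 h, then 22.9 and 23.7 CPM at 24 h, which gave a log2 fold change of -0.60 ± 0.05 under 2-fold, so the 2 subunit genes had opposite signs. Of the kinases that switch the complex off, Pdk1 measured 29.7 and 29.4 CPM at 0 h, 54.3 and 55.3 CPM at 6 h, then 28.8 and 26.7 CPM at 24 h, and Pdk3 stayed between 40.1 and 57.1 CPM. Pdk2 and Pdk4 had 0 or 1 count in a library.

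**Figure D4:**
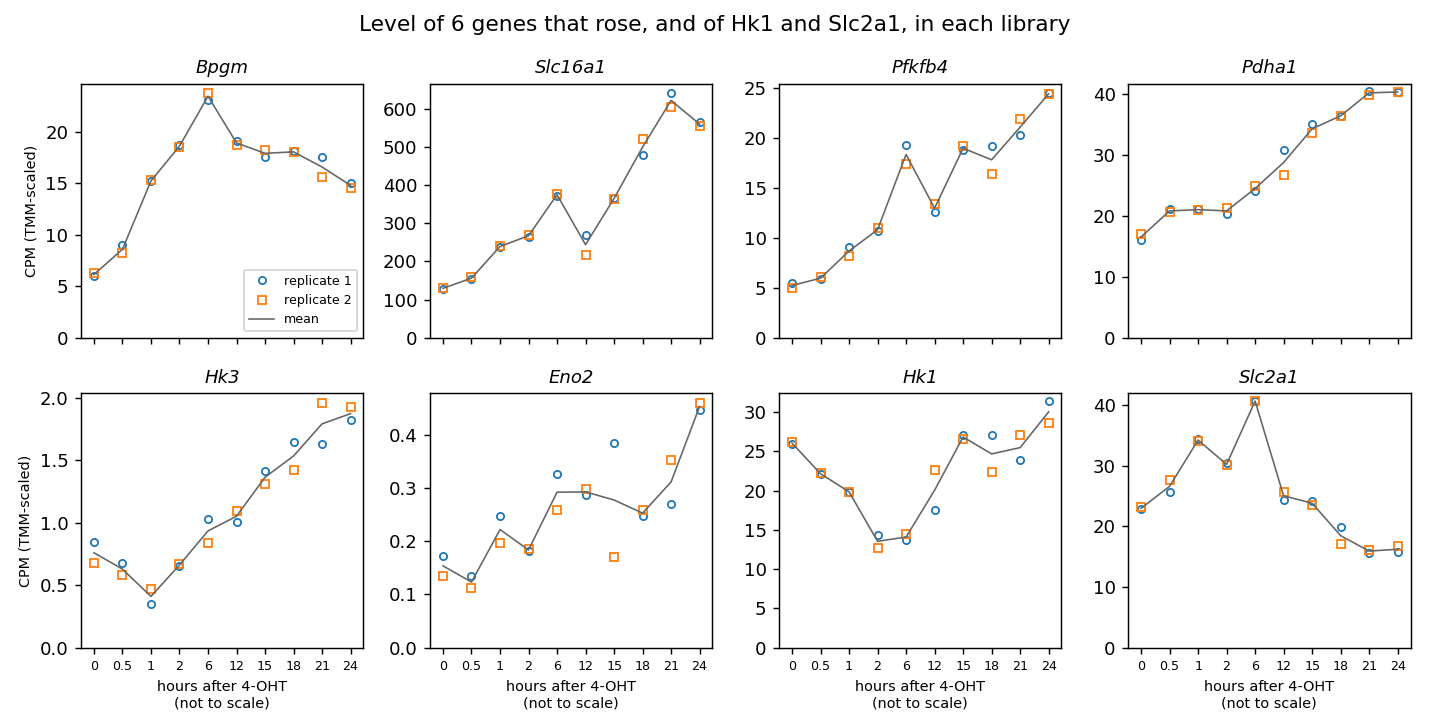
CPM (vertical axis, from 0) of 6 genes that rose and of Hk1 and Slc2a1, at each time (horizontal axis, not to scale), with a circle and a square for the 2 libraries and a line through their means. Bpgm rose first and peaked at 6 h, Slc16a1 dipped at 12 h, Hk1 lay below its 0 h level at 2 h and 6 h and Slc2a1 peaked at 6 h.

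In the pentose phosphate pathway only Tkt (chr14:30548359-30574720, plus strand), transketolase, was called: it measured 151 and 148 CPM at 0 h, 100 and 101 CPM at 2 h, then 50.4 and 50.2 CPM at 24 h and fell by 1.57 ± 0.05 (edgeR, adjusted p = 3.41e-18). Taldo1, transaldolase, measured 10.9 and 10.7 CPM at 0 h, then 15.7 and 14.0 CPM at 24 h (log2 fold change 0.46 ± 0.07). Pgls, 6-phosphogluconolactonase, of whose length 61.4% is free of other genes, measured 31.5 and 28.9 CPM at 0 h, then 23.5 and 20.6 CPM at 24 h (-0.46 ± 0.07). Rpia, ribose 5-phosphate isomerase, measured 25.6 and 24.9 CPM at 0 h, 37.7 and 38.6 CPM at 6 h, then 28.0 and 29.1 CPM at 24 h (0.18 ± 0.06). None of the 3 passed 2-fold. Pgd, 6-phosphogluconate dehydrogenase, measured 36.5 and 35.6 CPM at 0 h, then 55.6 and 52.2 CPM at 1 h, and was back at 37.0 and 36.3 CPM at 24 h (0.02 ± 0.05). Under scaling by library totals the values of Hk1, Rpia and Pgd at 24 h change sign, to -0.05, -0.08 and -0.23.

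G6pdx, glucose 6-phosphate dehydrogenase, the entry enzyme of the pathway, had 0 counts in every library, which is not a measure of its expression. The annotation places it wholly inside Ikbkg on the opposite strand, and 698 of 703 protein-coding genes so covered were at 0 (99.3%), against 18.9% of uncovered ones.

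The 6 h and 24 h values were compared directly, a comparison added after the values were seen. Between them 14 of 35 genes fell and 2 rose (Hk1 and Hk3), against 12.8% and 10.9% of all genes (23.7% in all). Of the 14 genes called lower at 24 h against 0 h, 7 were above their 0 h level at 6 h, and 1 (Pfkfb3) was already called lower. The matching shares over all tested genes were not computed. From 12 h to 24 h 6 of 35 were called (9.05% of all genes fell and 6.43% rose, 15.5% in all): Hk2, Aldoc, Gapdh, Ldha and Slc16a3 fell further and Slc16a1 rose. Under scaling by library totals 10 were called, all lower, so Slc16a1 lost its call.

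**Figure D5:**
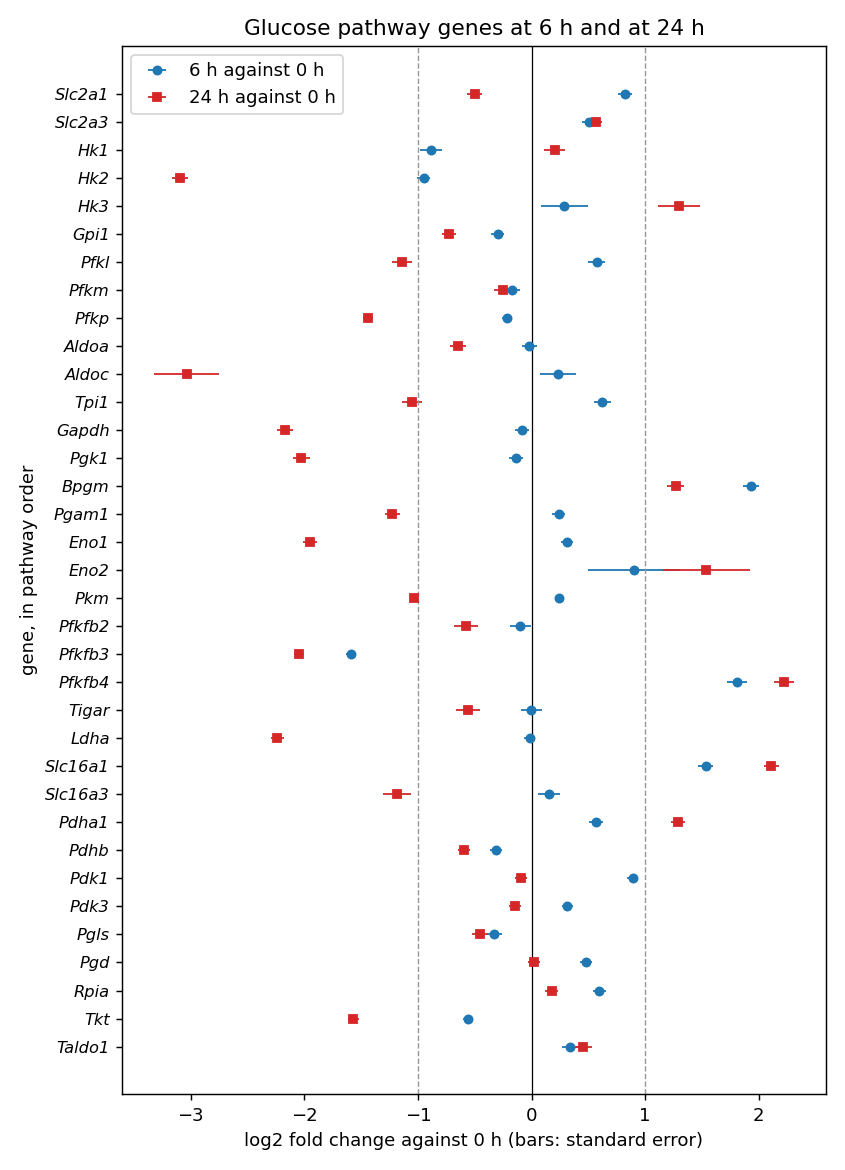
Log2 fold change against 0 h (horizontal axis, bars are standard errors) of the 35 tested genes in pathway order, at 6 h (circles) and at 24 h (squares), with dashed lines at 2-fold. Slc2a1, Pfkl, Tpi1, Pgam1, Eno1 and Pkm lie right of 0 at 6 h and left of 0 at 24 h.

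The time at which a called gene had covered the midpoint of its largest log2 change was read from the mean curve. It was 0.792 h for Bpgm, 2.13 h for Pfkfb3, 2.34 h for Pfkfb4 and 2.71 h for Slc16a1, but 11.3 h for Eno1, 11.5 h for Ldha, 11.6 h for Pgk1, 14.7 h for Gapdh and 16.5 h for Aldoc. The scale matters for some genes: Hk2 reached it at 12.2 h on the log2 scale and at 1.16 h on linear CPM, and Slc16a1 at 15.2 h on linear CPM.

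Genes around these steps, taken from lists of neighbouring pathways, gave the following at 24 h, where 20.1% of all tested genes fell and 20% rose (median -0.01). Of 26 genes of pyruvate entry and the tricarboxylic acid cycle 6 fell and 0 rose (median log2 fold change -0.73), among them Idh3a, an isocitrate dehydrogenase subunit (-2.26 ± 0.06), Pcx, pyruvate carboxylase (-1.89 ± 0.06) and Pdp1, the phosphatase that switches pyruvate dehydrogenase on (-2.42 ± 0.16). Of 31 tested genes on branches from glycolysis 5 fell and 3 rose (median -0.10). Phgdh and Psat1, the first enzymes of serine synthesis, had log2 fold changes of -4.31 ± 0.06 and -3.13 ± 0.05, and Phgdh went from 117 to 5.87 CPM on average. Prps1, which makes the ribose donor for nucleotides, stood at -1.78 ± 0.09. The 3 that rose were Ugdh and Ugp2 of UDP-glucose metabolism (1.23 ± 0.07 and 1.01 ± 0.08) and Gpd1l, a glycerol 3-phosphate dehydrogenase (1.16 ± 0.05).

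Of 21 tested regulators of glucose genes 2 fell and 5 rose (median 0.23), beside the same 20.1% and 20% of all genes. Myc, an activator of glycolysis genes, went from 62.9 to 4.97 CPM (-3.67 ± 0.12), and Prkab2, an AMPK subunit, stood at -1.08 ± 0.07. Egln3, an oxygen-sensing prolyl hydroxylase, Mxi1, a MYC antagonist, and Foxo1 had log2 fold changes of 3.06 ± 0.33, 2.95 ± 0.08 and 2.73 ± 0.04. Egln3 averaged only 0.155 CPM at 0 h, so its value rests on low counts there. Among isozymes known from other tissues, Fbp1, fructose 1,6-bisphosphatase, had a log2 fold change of -2.11 ± 0.17 and the testis subunit Ldhc one of -1.54 ± 0.27.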

How the data were processed

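Per the labels and the study's methods, reads of rRNA-depleted directional libraries were aligned to GRCm38 with STAR, and the authors deposited counts per gene from featureCounts, intronic reads included. The strand setting and annotation release are not given in the sources used here; 99.3% of genes covered by an opposite-strand gene were at 0, so reads shared between genes appear to have been left out whatever their strand. Genes were placed with GENCODE M21.

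Counts were scaled by TMM and fitted in 1 model over all 20 libraries (edgeR 4.0.16, R 4.3.3), with calls at a Benjamini-Hochberg adjusted p under 0.01 and a fold above 2 among genes that reached 10 counts in 2 or more libraries. CPM use the same scaling, and levels between genes were compared per kb of gene body. On simulated counts for 24 h against 0 h (16601 genes, 200 changed) the test recovered 100% of log2 changes of 2 and 96% of log2 falls of 1.5. The counts were drawn with the spread fitted to these data, and the changed genes were taken from those above 1 CPM at 0 h. Genes below that level, such as Eno2 and Hk3, and changes close to 2-fold were therefore not covered. All 39 genes are named, and of other lists the 3 called genes that rose most and the 3 that fell most at 24 h, apart from 1 gene whose result is not reported here. The genes and the lists were chosen with earlier results of these data known. Promoter sequences are from RefSeq. DESeq2 1.42.0, other scalings, filters and thresholds, a replicate block and leaving out libraries were the alternatives.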

Additional observations from a re-analysis of the deposited data

Results flagged for a closer look

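In 6 genes the changes at 6 h and at 24 h, both against 0 h, had opposite signs with an adjusted p under 0.01 each. A call in the direct test of 24 h against 6 h (edgeR's quasi-likelihood test) was a condition of the selection, not a separate result. That comparison was added after the values were seen. Over all tested genes 57.2% at 6 h and 71.5% at 24 h had an adjusted p under 0.01. At 24 h against 6 h 23.7% of all tested genes were called. The share of all genes meeting these conditions together was not computed. The log2 fold change at 24 h against 6 h was -1.32 for Slc2a1, -1.72 for Pfkl, -1.68 for Tpi1, -1.47 for Pgam1, -2.27 for Eno1 and -1.27 for Pkm. All 6 were above 0 h at 6 h and below it at 24 h. The number of genes called in that comparison was 15 to 17 when any 1 library of 6 h or 24 h was left out.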

How the results depend on the processing

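The 24 h log2 fold changes of the 35 genes were recomputed 418 times under the alternatives: 412 kept direction and side of the threshold, 3 lost the call and 3 changed sign. Eno2 lost its call under DESeq2's Wald test (1.57, adjusted p = 0.0171) and without the second 0 h library (1.38, edgeR adjusted p = 0.0117), and Pkm without the second 24 h library (-0.99). Under library totals Hk1 was -0.054, Pgd -0.23 and Rpia -0.080, and 10 genes were called at 24 h against 12 h, all down. Without a fold threshold 6, 23, 22, 24, 24, 29, 29, 31 and 31 genes were called at the 9 times (8.44%, 36.3%, 47.7%, 57.2%, 60.7%, 65.7%, 71.3%, 71.6% and 71.5% of all genes tested), 22 at 12 h against 2 h (47.6%), 28 at 24 h against 12 h (50.3%), 30 at 24 h against 6 h (59.5%) and 34 over the time course (88.0%). A test against a 2-fold change called 2 at 2 h (6.16% of all genes) and 0 at 12 h against 2 h (4.04%; 22 had an adjusted p under 0.01 in edgeR). The median midpoint time of the genes that fell was 12.2 h, and 10.7 h on linear CPM, 13.5 h under library totals and 13.1 h from the second replicates; that of the genes that rose was 2.71 h, and 11.5 h on linear CPM, 2.77 h with DESeq2 size factors, 1.78 h under library totals, 2.56 h from the first and 2.47 h from the second replicates. The cause of these differences was not tested. Leaving out single libraries gave 1 to 2 calls at 1 h, 4 to 6 at 2 h, 12 to 13 at 15 h, 15 to 17 at 18 h, 17 to 18 at 21 h, 19 to 20 at 24 h, 1 to 2 at 12 h against 2 h, 5 to 6 at 24 h against 12 h, 15 to 17 at 24 h against 6 h and 19 to 21 over the time course. At 1 h the count was 2 without the second 0 h or the second 1 h library, and at 12 h against 2 h it was 2 without the second 12 h library. With a replicate block 20 genes were called at 24 h, and no count of calls moved. The replicate numbers did not pair the libraries consistently (mean correlation 0.0239 over 45 pairs of time points, range -0.644 to 0.429). Of these pairs 18 were over 0.1, and whether libraries of different times shared a batch was not tested. Without the 12, 18 and 21 h libraries, chosen after seeing the data, 20 were called at 24 h. Depth limits Aldoc, Eno2 and Hk3, which had as few as 4, 5 and 17 counts in a library.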

Other observations

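Eno2 and Tpi1 lie 40.9 kb apart on chromosome 6 (GRCm38), and at 24 h Eno2 rose by 1.54 on the log2 scale while Tpi1 fell by 1.05. Tigar, on the minus strand, starts 15.6 kb from the nearer edge of Ccnd2, which encodes the cell cycle protein cyclin D2. Ccnd2 went from 128 ± 2.18 CPM at 0 h to 16.1 ± 0.758 CPM at 2 h (SD, n = 2), a log2 fold change of -2.99 ± 0.08, whereas Tigar stood at -0.19 ± 0.10 at 2 h and -0.56 ± 0.11 at 24 h.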
